A study of Mus musculus with 12 samples.

Results

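The comparison described here is AICAR given alone against vehicle in mouse quadriceps muscle, read from 6 of the 12 arrays of the series. The 3 AICAR arrays and the 3 vehicle arrays were chosen by their titles, and all 12771 genes tested in the series were tested here. C57Bl/6J mice were dosed for 6 days in every group. The AICAR group received 250 mg/kg/day of that drug, the GW1516 group 5 mg/kg/day of a PPARδ agonist, the combination group both at these doses, and the control group vehicle alone. No group carries a genetic change in the labels, and sex and age are not given there. Each array held RNA pooled from 3 mice, and the labels leave unsaid whether pools of a group share animals, so a p-value here refers to the variation among pools. The vehicle is not named in the labels.

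AICAR is a cell-permeable nucleoside that is taken up by adenosine transporters and phosphorylated by adenosine kinase to ZMP, a mimic of AMP. ZMP binds the γ subunit of the AMP-activated protein kinase, AMPK, a heterotrimer of a catalytic α subunit with β and γ subunits that the kinase LKB1 activates when cellular energy falls. In skeletal muscle AMPK is known for promoting glucose uptake and fatty acid oxidation, restraining lipid and protein synthesis, and acting on the coactivator PGC-1α and on FOXO transcription factors. ZMP is also an intermediate of purine synthesis and acts on other enzymes that sense AMP.

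The median signal was 54.2, 52.0 and 52.0 on the AICAR arrays and 48.0, 49.8 and 48.1 on the vehicle arrays, so every AICAR array lay above every vehicle array. Centring each array on its median moved the median log2 difference of all genes from 0.01 to -0.11. The trimmed mean was 200 on each, and their correlations with each other over the tested genes lay between 0.958 and 0.968. Muscle fibre genes dominated all 6 arrays: Acta1, Ckm, Ttn, Pygm, Myh4 and Mb were each at or above the 99.0 percentile. Elsewhere in the series, the second GW1516 array stood apart from the other 11 on the first principal component, at 45.9 against -18.7 to 6.77. It entered the shared estimate of the spread, and values that rest on it are given with and without it. With 3 arrays in a group precision was limited, and a log2 difference had a median standard error (SE) of 0.188.

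Rpl22l1, a paralogue of the ribosomal protein gene Rpl22, fell by 0.63 on the log2 scale. It was 1 of 12771 genes called at an adjusted p below 0.05 by limma with Benjamini-Hochberg adjustment, or 0.00783%, and 0 genes were called higher. The count depended on the arrays in the fit: it was 0 without AICAR replicate 2, AICAR replicate 3 or vehicle replicate 2, 2 without AICAR replicate 1 or vehicle replicate 1, 3 without vehicle replicate 3, 6 without GW1516 replicate 1, 8 without GW1516 replicate 2, and 28 when only the 6 arrays of the comparison were fitted. At an unadjusted p below 0.05 there were 496 genes higher (3.88%) and 389 lower (3.05%), together 6.93% of the genes tested. In 1188 genes (9.3%) all 3 AICAR arrays lay above all 3 vehicle arrays, and in 1153 (9.03%) all 3 lay below. The log2 difference was above 0 in 52% of all genes. These shares are the background for each count below. Genes other than Rpl22l1 are described by their values and did not pass the adjusted threshold. A log2 difference is AICAR minus vehicle unless said otherwise, and signals are in the arbitrary MAS5 units of the arrays, which cannot be set against each other between genes.

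Promoter sequences are shown for the called gene and for Foxo1, Sult1a1 and Pfkfb3, which are among the leading genes described below. The windows run from 250 bases before to 50 after the annotated start, come from RefSeq on GRCm38.p6, and were found for 21 of the 24 leading genes described below. Capitals mark matches on either strand to GTAAACA and CAAAACA, 2 forms of the forkhead site, and to CACGTG (E-box), TGACG (the core of a cyclic AMP response element) and TATAAA. The windows lie at chr3:28805258-28805557 on the plus strand for Rpl22l1, chr3:52268087-52268386 on the plus strand for Foxo1, chr7:126676369-126676668 on the minus strand for Sult1a1 and chr2:11553880-11554179 on the minus strand for Pfkfb3.
Rpl22l1: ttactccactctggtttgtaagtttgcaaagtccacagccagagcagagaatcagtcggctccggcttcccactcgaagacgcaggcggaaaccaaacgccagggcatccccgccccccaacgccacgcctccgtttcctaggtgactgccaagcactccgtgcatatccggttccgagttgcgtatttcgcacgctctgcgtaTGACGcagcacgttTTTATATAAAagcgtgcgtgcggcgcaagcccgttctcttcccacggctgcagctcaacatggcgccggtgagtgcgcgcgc
Foxo1: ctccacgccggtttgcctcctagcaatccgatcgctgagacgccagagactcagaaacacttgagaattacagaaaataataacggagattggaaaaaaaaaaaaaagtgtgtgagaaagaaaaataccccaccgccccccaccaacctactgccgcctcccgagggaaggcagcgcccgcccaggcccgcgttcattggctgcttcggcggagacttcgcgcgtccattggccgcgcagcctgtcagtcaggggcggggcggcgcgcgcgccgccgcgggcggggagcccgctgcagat
Sult1a1: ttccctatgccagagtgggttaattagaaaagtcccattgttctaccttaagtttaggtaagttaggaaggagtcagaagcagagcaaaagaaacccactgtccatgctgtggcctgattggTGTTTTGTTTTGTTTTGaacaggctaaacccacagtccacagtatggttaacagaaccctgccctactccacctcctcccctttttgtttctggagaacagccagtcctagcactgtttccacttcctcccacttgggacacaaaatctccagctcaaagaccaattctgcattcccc
Pfkfb3: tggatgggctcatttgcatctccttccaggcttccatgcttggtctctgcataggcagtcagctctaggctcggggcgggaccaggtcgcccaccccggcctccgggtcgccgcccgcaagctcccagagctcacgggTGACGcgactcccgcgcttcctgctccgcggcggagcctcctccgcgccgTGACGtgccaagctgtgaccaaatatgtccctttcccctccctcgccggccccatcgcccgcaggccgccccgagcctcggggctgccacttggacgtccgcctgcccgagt
The Rpl22l1 window held 1 TGACG and 2 overlapping TATAAA matches, 1 on each strand. The Foxo1 window held none of these letters. The Sult1a1 window held 3 overlapping CAAAACA matches, and the Pfkfb3 window shown held 2 TGACG matches. Another Pfkfb3 window, at chr2:11502041-11502340 on the minus strand, is not shown and held 1 CACGTG and 1 TGACG match. Of 32851 promoter windows of the same length, 3.65% held GTAAACA, 6.28% CAAAACA, 7.15% CACGTG, 20.8% TGACG and 13.6% TATAAA. A match describes letters in the window and not a bound site.

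Rpl22l1 had signals of 2662, 2720 and 2759 on the AICAR arrays and of 3999, 4181 and 4433 on the vehicle arrays. The groups were far apart and each was tight, with means of 2714 ± 48.8 and 4204 ± 218 (SD, n = 3 each). The log2 difference was -0.63 ± 0.072 (SE), a 1.55-fold lower level, with an adjusted p of 0.00658. Its paralogue Rpl22 differed by -0.11 ± 0.084 on its brightest probe set, with an adjusted p of 0.830. Dimmer Rpl22 probe sets disagreed, at -0.38 ± 0.16 and 0.17 ± 0.12, each without overlap of the arrays. The call of Rpl22l1 was lost without AICAR replicate 2 (adjusted p = 0.0838), without AICAR replicate 3 (0.0612) or without vehicle replicate 2 (0.0753). Its difference stayed between -0.67 and -0.59 when 1 AICAR or vehicle array was left out. The GW1516 and combination arrays do not enter that difference.

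Among genes with higher signal after AICAR, Foxo1 was the clearest. Foxo1 encodes a forkhead transcription factor that insulin signalling keeps out of the nucleus and that drives fuel-switching and atrophy genes in muscle. Its signals were 645, 709 and 667 with AICAR and 262, 254 and 276 with vehicle. The difference was 1.35 ± 0.20 on the log2 scale, or 2.55-fold, with an adjusted p of 0.0561. All 3 Foxo1 probe sets agreed in direction, with differences of 1.14 to 1.35. Over the 12 omissions of 1 array the adjusted p of Foxo1 ran from 0.000389 to 0.330. It was below 0.05 without GW1516 replicate 1 (0.000389) or replicate 2 (0.00431), arrays that do not enter the difference but do enter the shared spread, and highest without AICAR replicate 2 (0.330) and vehicle replicate 1 (0.273).

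Plin4 and Sult1a1 were the other 2 genes at an adjusted p below 0.10. Plin4, a coat protein of lipid droplets, had signals of 3828, 4447 and 4503 with AICAR and of 2761, 2726 and 2731 with vehicle, so that the vehicle arrays were nearly identical and the AICAR arrays all higher. Its difference was 0.63 ± 0.097, with an adjusted p of 0.0561. Sult1a1, a cytosolic sulfotransferase of phenolic compounds, had signals of 749, 1049 and 988 against 454, 544 and 381, without overlap. Its difference was 1.01 ± 0.16, with an adjusted p of 0.0563. Over the same omissions the adjusted p of Plin4 ran from 0.00233 without GW1516 replicate 2 to 0.330 without AICAR replicate 2, and it was also below 0.05 without GW1516 replicate 1 (0.0380). That of Sult1a1 ran from 0.0380 without GW1516 replicate 1 to 0.330 without AICAR replicate 2, and it was also below 0.05 without AICAR replicate 1 (0.0470) or GW1516 replicate 2 (0.0387).

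The other 9 of the 12 leading higher genes, chosen by smallest p among genes whose arrays did not overlap, had adjusted p-values of 0.164 to 0.248. Ramp2, the vascular partner of the adrenomedullin receptor, had signals of 564, 641 and 700 with AICAR and of 419, 394 and 411 with vehicle, a difference of 0.63 ± 0.12, and was called without GW1516 replicate 2 (adjusted p = 0.0387). Adgrf5, an adhesion receptor of endothelium, had signals of 1043, 1199 and 1153 against 779, 794 and 715, a difference of 0.57 ± 0.11. Adgrg1, another adhesion receptor, differed by 0.70 ± 0.15, and Prelp, a leucine-rich matrix proteoglycan, by 0.58 ± 0.13.

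The largest of these differences belonged to dim genes. Fam107a, a stress- and glucocorticoid-responsive actin-binding protein, had signals of 154, 127 and 138 with AICAR against 23.8, 64.9 and 39.1, a difference of 1.82 ± 0.37. Cpsf4l had signals of 78.4, 40.5 and 51.9 against 9.09, 13.3 and 16.1, a fitted difference of 2.13 ± 0.44, but its other probe set differed by -0.17. The vehicle signals of Cpsf4l all lay below 28.2, the level of the filter, where a signal is not shown to be above background, so the size of this difference is not established. Map3k6, a kinase of stress signalling, differed by 0.96 ± 0.20, and the transcript 4933406J09Rik by 1.16 ± 0.25. Noct, a clock-controlled phosphatase of NADP and NADPH, was brighter: its signals were 939, 982 and 1005 against 451, 592 and 773, a difference of 0.72 ± 0.16.

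Pfkfb3 had the lowest adjusted p among lower genes after Rpl22l1, at 0.129. It encodes an enzyme that makes fructose 2,6-bisphosphate, the activator of phosphofructokinase, and is a known phosphorylation target of AMPK. Its signals were 1668, 1551 and 1092 with AICAR and 3954, 3226 and 3151 with vehicle. The highest AICAR array lay well below the lowest vehicle array, and the difference was -1.28 ± 0.22, a 2.42-fold lower level. A second Pfkfb3 probe set differed by -0.81.

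The other 10 of the 12 leading lower genes were of mixed function, with adjusted p-values of 0.164 to 0.267. Pnmt, which converts noradrenaline to adrenaline, had signals of 82.2, 64.2 and 87.4 with AICAR and of 156, 177 and 205 with vehicle, a difference of -1.21 ± 0.23. Cited4, a binding partner of the coactivators CBP and p300, had signals of 809, 606 and 638 against 1223, 1103 and 1190, a difference of -0.79 ± 0.14. Slc30a1, a zinc exporter of the plasma membrane, had signals of 102, 118 and 91.4 against 217, 190 and 224, a difference of -1.02 ± 0.20, but its other, dimmer probe set differed by -0.01. The vehicle level of each of these genes was higher on every array.

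Nr1d1, which encodes the clock repressor REV-ERBα, had signals of 702, 599 and 505 against 1016, 985 and 928, a difference of -0.71 ± 0.16. Bag2, a cochaperone of heat shock protein 70, differed by -0.66 ± 0.15, and Pabpc1, the main cytoplasmic poly(A)-binding protein, by -0.37 ± 0.082. The opposite-strand transcript Lppos differed by -0.70 ± 0.13 and was called without GW1516 replicate 2 (adjusted p = 0.0259). Slc30a1 was called without GW1516 replicate 1 (adjusted p = 0.0458), and Bag2 without vehicle replicate 3 (0.0346). Polh, a translesion DNA polymerase, differed by -0.75 ± 0.15, Zbtb38, a zinc finger protein that binds methylated DNA, by -0.62 ± 0.13, and Pla2g7, which degrades platelet-activating factor, by -0.58 ± 0.13. The 2 other Zbtb38 probe sets differed by -0.17 and 0.23.

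**Figure D1:**
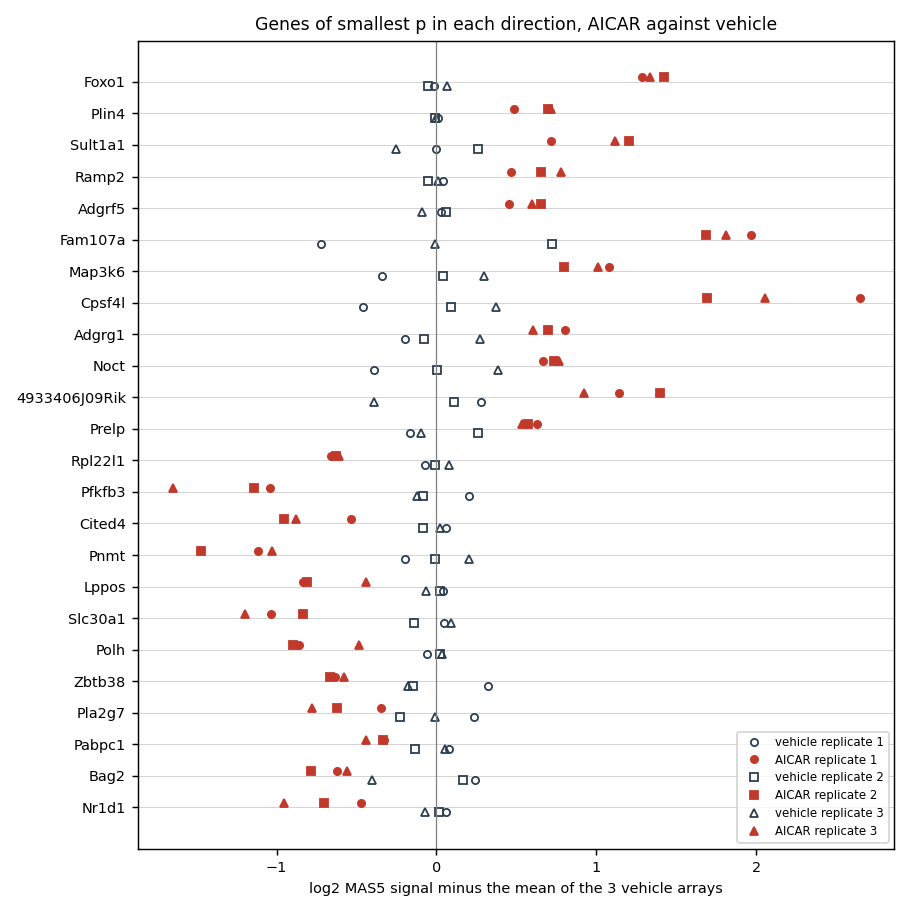
Each point is 1 array, plotted as log2 signal minus the mean of the 3 vehicle arrays, for the 12 genes of smallest p in each direction whose AICAR arrays (filled) did not overlap the vehicle arrays (open). The AICAR arrays of Rpl22l1 sit closest together, around the difference of -0.63, while Fam107a and Cpsf4l have the widest vehicle or AICAR spread.

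Fkbp5, named after its values were seen, was not among these 24 genes. It encodes a glucocorticoid-induced cochaperone of steroid receptors. Its signals were 1065, 1054 and 1146 with AICAR and 381, 478 and 475 with vehicle, and the difference was 1.30 ± 0.32, with an adjusted p of 0.338. On the 3 GW1516 arrays its signals were 525, 2036 and 1005, the highest being replicate 2. Without that array the adjusted p of the AICAR difference was 0.0150, and without GW1516 replicate 1 it was 0.0380.

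The combination and GW1516 arrays give the same contrast, AICAR present against AICAR absent, on 6 other arrays. These arrays do not enter the difference from vehicle but do enter the shared spread behind its p. In the combination against GW1516, 0 of 12771 genes were called by limma, 1326 (10.4%) had an unadjusted p below 0.05, 12.8% had arrays that did not overlap and 52.1% stood above 0. Of the 24 leading genes, 20 had the same sign there (83.3%), against 53.2% of all genes tested. All 12 higher genes kept a positive difference, and 8 of the 12 lower genes a negative one. Without GW1516 replicate 2 the count of 24 was 21, and the share of all genes 54.4%. The median size of the 24 was 0.72 with AICAR alone and 0.22 in the other contrast. The 24 were selected by a p whose difference came from the first set of arrays and whose spread came from all 12. The 2 medians are therefore given side by side and not compared.

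Pfkfb3, Foxo1, Sult1a1, Nr1d1, Pnmt and Noct kept the largest differences when AICAR was given with GW1516. Pfkfb3 had signals of 2122, 1907 and 1342 with GW1516 alone and of 907, 492 and 779 with the combination, a difference of -1.32 ± 0.22. Both groups lay below the vehicle arrays for this gene, and the combination lay below GW1516. Foxo1 had signals of 307, 660 and 532 with GW1516 and of 763, 910 and 717 with the combination, a difference of 0.74 ± 0.20, or 0.97 without GW1516 replicate 2.

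Sult1a1 had signals of 504, 628 and 699 with GW1516 and of 1065, 902 and 1045 with the combination, a difference of 0.73 ± 0.16. Noct differed by 0.55 ± 0.16, Nr1d1 by -0.67 ± 0.16 and Pnmt by -0.60 ± 0.23. Apart from Pnmt, the arrays of these genes did not overlap between the groups. Without GW1516 replicate 2 the differences were -1.26 for Pfkfb3, 0.76 for Sult1a1, 0.45 for Noct, -0.82 for Nr1d1 and -0.49 for Pnmt, and Fam107a stood at 0.61 instead of 0.44. Rpl22l1 had signals of 3665, 3493 and 3164 with GW1516 and of 2931, 2960 and 2939 with the combination. All 3 combination arrays were lower, with a difference of -0.22 ± 0.072 and an adjusted p of 0.337, or a difference of -0.21 without GW1516 replicate 2.

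Plin4 showed little separation in that contrast, with signals of 4310, 5488 and 4357 with GW1516 and of 4789, 5318 and 5018 with the combination. All 6 of these arrays lay above the vehicle arrays, and the difference was 0.10 ± 0.097, or 0.22 without GW1516 replicate 2. Lppos stood at 0.01, Slc30a1 at 0.00, Pla2g7 at 0.17 and Polh at 0.33, none of them below 0 as with AICAR alone. Without that array they stood at -0.15, 0.18, 0.11 and 0.30. The test of the difference between the contrasts called 0 genes, with 848 (6.64%) at an unadjusted p below 0.05. The adjusted p of that test was 0.703 for Rpl22l1, Plin4 and Polh.

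**Figure D2:**
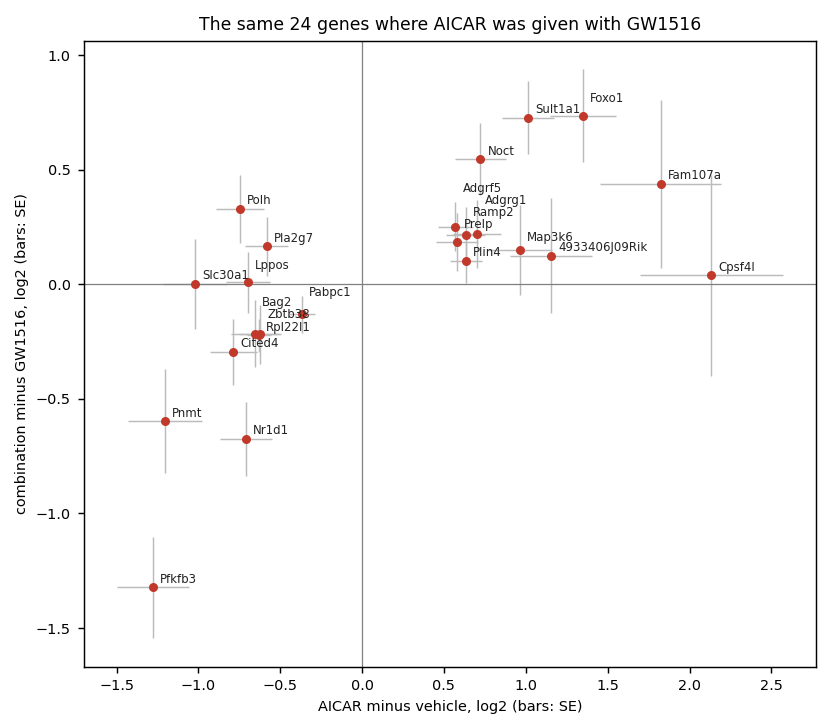
The 24 leading genes by their log2 difference for AICAR against vehicle (horizontal) and for the combination against GW1516 (vertical), with standard errors as bars. Pfkfb3 lies at -1.28 and -1.32, Foxo1 at 1.35 and 0.74, and Polh and Pla2g7 lie on opposite sides of 0 in the 2 contrasts.

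Of 12 genes for AMPK subunits and upstream kinases tested, 8 differences were above 0 and 4 below, the median was 0.03, and 0 reached an unadjusted p below 0.05. Over all genes the median was 0.01. Prkaa2, the main catalytic α subunit of muscle, had signals of 4349, 4283 and 3905 with AICAR and of 4607, 4196 and 4038 with vehicle, a difference of -0.03 ± 0.11. Prkab1 and Prkab2, the β subunits, differed by 0.03 ± 0.11 and -0.08 ± 0.11, and Stk11, the gene of LKB1, by 0.02 ± 0.078. Prkaa1, the other α subunit, was dim and imprecise at 0.36 ± 0.50. Probe sets disagreed for some subunits. A dimmer Prkag1 probe set had signals of 137, 131 and 170 against 72.3, 55.2 and 92.1 and differed by 1.02 ± 0.38, while the brightest differed by 0.02 ± 0.20. Another Prkab2 probe set had signals of 3023, 3284 and 2588 against 4084, 3338 and 3882 and differed by -0.35 ± 0.12.

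Prkag3, the γ subunit specific to fast glycolytic muscle, had the lowest p within that list when each gene was read by its brightest probe set. Its signals were 2890, 3007 and 2688 with AICAR and 3585, 3643 and 3786 with vehicle. By brightest probe sets it was the only member whose arrays did not overlap, unlike the dimmer Prkag1 and Prkab2 probe sets given above. The difference was -0.36 ± 0.21, with an adjusted p of 0.759 in the fit over 12 arrays and of 0.0457 in a fit of the 6 arrays alone. On the GW1516 arrays its signals were 3185, 1793 and 3446, and on the combination arrays 2059, 3361 and 3066. These arrays spread more widely than the 6 of the comparison.

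Genes of AICAR uptake and purine handling stood near their vehicle levels in most cases. Of 21 tested, 10 stood above 0 and 11 below, with a median of -0.03. Adk, the adenosine kinase that makes ZMP, differed by -0.22 ± 0.13, and its 4 probe sets ranged from -0.50 to 0.28. The lowest had signals of 430, 563 and 550 against 790, 733 and 646, without overlap, and those above 0 were dimmer. In the combination against GW1516 Adk stood at 0.45 ± 0.13, with arrays that did not overlap and an adjusted p of 0.296 in limma. Without GW1516 replicate 2 it stood at 0.40. Atic, the enzyme that consumes ZMP, differed by 0.17, and the nucleoside transporter Slc29a1 by 0.09. The 2 members at an unadjusted p below 0.05 act in purine breakdown. Pnp, purine nucleoside phosphorylase, had signals of 296, 296 and 317 against 226, 201 and 228, a difference of 0.47 ± 0.14 with an adjusted p of 0.477. Xdh, xanthine dehydrogenase, had signals of 288, 352 and 435 against 239, 209 and 238, a difference of 0.63 ± 0.22 with an adjusted p of 0.624.

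Among 20 substrates of AMPK and related regulators of energy use, 9 stood above 0 and 11 below, with a median of -0.01. Tbc1d1, which restrains GLUT4 traffic until it is phosphorylated, had signals of 354, 318 and 425 against 174, 270 and 283, a difference of 0.61 ± 0.25. This was the highest of its 4 probe sets, which ranged from -0.05 to 0.61. Acacb, the acetyl-CoA carboxylase that AMPK inhibits in muscle, differed by 0.18 ± 0.12, Ulk1, a kinase that starts autophagy, by 0.20 ± 0.11, and Mtor, a growth kinase, by 0.22 ± 0.10. All 4 genes had AICAR arrays above every vehicle array. In the combination against GW1516 Tbc1d1 stood at -0.34, or -0.11 without GW1516 replicate 2, and 4 of the 20 genes stood above 0, or 9 without that array.

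Ppargc1a, the gene of PGC-1α, had signals of 670, 694 and 608 with AICAR and of 606, 556 and 540 with vehicle. The arrays did not overlap, by a narrow margin, and the difference was 0.21 ± 0.10 with an adjusted p of 0.730. In the combination against GW1516 it stood at -0.10, or -0.08 without GW1516 replicate 2. Of the 22 regulators in its list, 11 stood above 0 and 11 below. Nrip1, a corepressor of oxidative genes, differed by 0.38 ± 0.13, and Esrrb by 0.34 ± 0.16. The receptor genes Ppard and Ppara stood at 0.01 and -0.05. Pparg, the adipocyte receptor, stood at 1.45 ± 0.54 and is described with the fat cell markers.

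**Figure D3:**
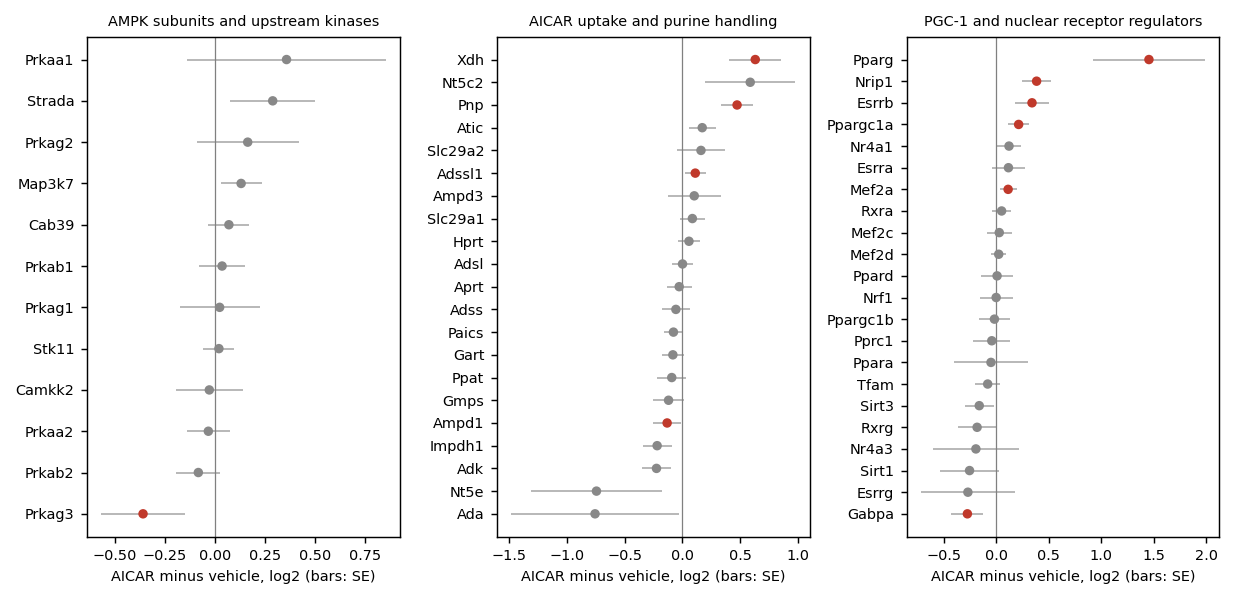
Log2 differences for AICAR against vehicle with standard errors, for 12 AMPK genes (left), 21 purine genes (middle) and 22 regulators (right). Red points are genes whose AICAR arrays did not overlap the vehicle arrays, with Prkag3 at -0.36 and Pparg at 1.45 as the extremes of the outer panels.

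Of the glucose genes, read by brightest probe sets, only Pfkfb3 reached an unadjusted p below 0.05. Slc2a4, the insulin- and contraction-responsive glucose transporter GLUT4, had signals of 5154, 6041 and 5468 against 5399, 5298 and 4993, a difference of 0.08 ± 0.074. A second, slightly dimmer Slc2a4 probe set had signals of 4487, 4782 and 4498 against 4002, 4193 and 3965, which do not overlap, and differed by 0.18 ± 0.066. Hk2, the muscle hexokinase, had signals of 5143, 5268 and 5266 against 4755, 4982 and 4890. Its arrays did not overlap, but the difference was 0.10 ± 0.066 with an adjusted p of 0.788. Of 16 genes of glucose uptake and glycolysis, 9 stood above 0 and 7 below. All AICAR arrays lay above all vehicle arrays in 3 of the 16, against 9.3% of all genes. They lay below in 5, Pfkfb3 included, against 9.03% of all genes.

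Among 16 genes of glycogen metabolism, 2 reached an unadjusted p below 0.05, both higher. Ppp1r3c, a scaffold that brings phosphatase to glycogen, had signals of 10742, 10659 and 11953 against 5615, 7940 and 9528, a difference of 0.56 ± 0.18 with an adjusted p of 0.586. Ugp2, which makes the glucose donor of glycogen synthesis, had signals of 9921, 9855 and 10145 against 7911, 8405 and 8824, a difference of 0.25 ± 0.094. The vehicle arrays of Ppp1r3c spread widely, and those of AICAR did not.

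Genes of the respiratory chain lay slightly below vehicle. Of 41 oxidative phosphorylation genes tested, 33 stood below 0 and 8 above, with a median of -0.05 against 0.01 for all genes. In 18 of the 41 all AICAR arrays lay below all vehicle arrays, against 9.03% of all genes, and 0 reached an unadjusted p below 0.05. The single differences were small. Ndufs1, a subunit of complex I, had signals of 4927, 5016 and 4951 against 5587, 5752 and 5433, a difference of -0.17 ± 0.094. Cyc1, of complex III, differed by -0.17 ± 0.095 and Sdhd, of complex II, by -0.15 ± 0.093. With quantile normalization the median of the list was -0.02. In the combination against GW1516 the list stood on the other side, with 36 of 41 above 0 and a median of 0.12, or 30 of 41 and 0.04 without GW1516 replicate 2.

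Of 21 genes of pyruvate entry and the tricarboxylic acid cycle, 15 stood below 0, including Dlst at -0.20 ± 0.087 and the pyruvate dehydrogenase phosphatase Pdp1 at -0.39 ± 0.12. Of 20 genes of mitochondrial fatty acid oxidation, 12 stood above 0 and 8 below, with a median of 0.01 and 0 at an unadjusted p below 0.05. Acadl, a dehydrogenase of long-chain acyl-CoA, stood at 0.24 ± 0.11 and Hadha, of the trifunctional protein, at -0.19 ± 0.092. Pdk4, the kinase that shuts pyruvate dehydrogenase, had signals of 3459, 4264 and 2834 against 3320, 2120 and 2554, which overlap, and a difference of 0.41 ± 0.24. Ucp3, a mitochondrial carrier that responds to fatty acids, had signals of 1417, 1757 and 1091 against 1178, 895 and 1079, also overlapping, and a difference of 0.42 ± 0.16.

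Of 72 cytosolic ribosomal protein genes listed, 41 were tested, 34 stood below 0 and 7 above, and the median was -0.10. In 22 of the 41 all AICAR arrays lay below all vehicle arrays, against 9.03% of all genes. At an unadjusted p below 0.05 there were 6 lower, namely Rpl8, Rpl10a, Rpl22l1, Rpsa, Rps24 and Rps28, and 1 higher, Rpl39. Only Rpl22l1 passed the adjusted threshold. Rpl10a, of the large subunit, had signals of 4777, 4503 and 4500 against 5220, 5776 and 5322, a difference of -0.24 ± 0.068. Rps24, of the small subunit, had signals of 9754, 9312 and 9669 against 11241, 10518 and 11237, a difference of -0.20 ± 0.071.

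Rpl39 was dim and had signals of 390, 260 and 347 against 173, 149 and 232, a difference of 0.85 ± 0.22 with an adjusted p of 0.407. Ribosomal protein genes have many processed copies, and probe sets may share sequence with them. In the combination against GW1516, 17 of 41 ribosomal genes stood above 0 and the median was -0.03, or 19 of 41 and -0.02 without GW1516 replicate 2.

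Genes of muscle atrophy and FOXO targets tended to stand above vehicle. Of 25 tested, 22 stood above 0 and 3 below, with a median of 0.12, and 8 had all AICAR arrays above all vehicle arrays, against 9.3% of all genes. The 3 at an unadjusted p below 0.05 were Foxo1, Cebpb and Mt1. Cebpb, a transcription factor of stress and glucocorticoid responses, had signals of 2144, 2552 and 2649 against 1504, 2073 and 1869, a difference of 0.44 ± 0.14. Mt1, a zinc-binding metallothionein, had signals of 949, 942 and 1098 against 525, 611 and 673, a difference of 0.73 ± 0.33.

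Neither of the ubiquitin ligases that define muscle atrophy passed the threshold. Fbxo32 (atrogin-1) had signals of 2123, 2541 and 2293 against 1995, 1839 and 1574, which do not overlap, and a difference of 0.37 ± 0.48. Trim63 (MuRF1) had signals of 2267, 2517 and 2357 against 2319, 2288 and 2149, a difference of 0.08 ± 0.38. The standard errors are large for such tight groups, and the spread they share includes GW1516 replicate 2, where Fbxo32 read 11253 and Trim63 10734 against 1507 to 2607 and 2209 to 2978 on the other 2 GW1516 arrays. Without that array the adjusted p was 0.509 for Fbxo32 and 0.832 for Trim63, and in a fit of the 6 arrays alone 0.183 and 0.633. The list's median in the combination against GW1516 was -0.22, and -0.01 without that array. Of 30 proteasome subunits, 19 stood above 0 and 11 below, with a median of 0.03, which became -0.09 with arrays centred on their medians.

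No fibre-type gene passed the adjusted threshold. Of 17 fast-twitch genes, 14 stood above 0 with a median of 0.09, and 7 had all AICAR arrays above all vehicle arrays, against 9.3% of all genes. Their summed signal was 362942 to 369560 with AICAR and 346112 to 357461 with vehicle, without overlap. Of 14 slow-twitch genes 12 stood above 0 with a median of 0.18. With arrays centred on their medians the fast-twitch median turned to -0.03, above the -0.11 of all genes, and the slow-twitch median became 0.07. With quantile normalization the medians were 0.01 for fast-twitch and 0.21 for slow-twitch genes. In the combination against GW1516, 16 of 17 fast-twitch genes stood above 0 with a median of 0.08. Without GW1516 replicate 2 it was 7 of 17 with a median of -0.004. For slow-twitch genes it was 12 of 14 and 0.22, or 13 and 0.21 without that array. Myh4, the fastest myosin heavy chain, had signals of 26466, 26635 and 26206 against 23260, 25338 and 23937, a difference of 0.13 ± 0.087. A dimmer Myh4 probe set had signals of 13839, 16100 and 15425 against 16478, 15736 and 15381, which overlap, and differed by -0.07 ± 0.083. Myh2, of oxidative fast fibres, had signals of 3915, 3430 and 6661 against 2757, 5631 and 2981, a difference of 0.32 ± 0.63, and Myh1 differed by 0.10 ± 0.20. The slow-fibre genes Tnni1, Tnnt1 and Myl2 were dim and went both ways, at -0.83 ± 0.61, -0.67 ± 0.79 and 1.09 ± 0.52.

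Of 17 myogenic and growth genes, 3 had an unadjusted p below 0.05, all lower. Igf2, a growth factor of regenerating muscle, had signals of 239, 257 and 247 against 412, 301 and 355, a difference of -0.51 ± 0.17 with an adjusted p of 0.593. Myod1, the myogenic master regulator, had signals of 447, 354 and 427 against 538, 549 and 658, a difference of -0.51 ± 0.24. Chrna1, the acetylcholine receptor subunit of the end plate, differed by -0.48 ± 0.19. The arrays of these 3 genes did not overlap between the groups.

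Of 18 immediate early genes, 8 stood above 0 and 10 below. Klf2, a flow-responsive factor, had signals of 325, 386 and 433 against 618, 703 and 444, a difference of -0.61 ± 0.16. Zfp36, which destabilises inflammatory messenger RNA, had signals of 593, 644 and 663 against 265, 453 and 509, a difference of 0.68 ± 0.19. Of 22 heat shock genes and chaperones, 16 stood below 0 with a median of -0.10, Dnajb1 among them at -0.39 ± 0.15. Hspa5, the chaperone of the endoplasmic reticulum, stood at 0.29 ± 0.11.

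Among 17 clock genes 9 stood above 0 and 8 below. Beside Nr1d1, Bhlhe40, a clock-linked repressor, had signals of 1477, 1468 and 1322 against 2360, 1921 and 1885, a difference of -0.53 ± 0.15 with an adjusted p of 0.456. Arntl, which activates Nr1d1, differed by 0.41 ± 0.28, and the clock output gene Dbp by -0.16 ± 0.18. The labels give no time of day for the collections, and its part in these values was not tested.

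Fat cell markers were high on some AICAR arrays and not on others. All 15 adipocyte markers tested stood above 0, with a median of 0.79, but the median over the list was 0.02, 0.83 and 1.59 on the 3 AICAR arrays and 0.40, -0.21 and -0.15 on the 3 vehicle arrays. The first AICAR array lay below the first vehicle array. The summed signal of the list was 23743 to 43154 with AICAR and 20184 to 29359 with vehicle, and 0 of its 6 defining markers were below the filter on dim probe sets. Adipoq, the gene of adiponectin, had signals of 1122, 2658 and 4385 against 2096, 660 and 1241, a difference of 0.98 ± 0.51. Only 3 of the 15 had AICAR arrays above all vehicle arrays. In the combination against GW1516, 7 of 15 stood above 0 with a median of -0.04, or 4 and -0.30 without GW1516 replicate 2. In whole muscle, more cells of a type and more RNA per cell cannot be told apart.

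Lipid genes followed the same order of arrays. The list of lipid uptake and storage had 17 of 19 genes above 0 and a median of 0.31, with array medians of 0.03, 0.37 and 0.76 for AICAR. Lpl, the lipase that frees fatty acids from lipoproteins, had signals of 4800, 6387 and 8291 against 5042, 4830 and 4183. Fasn, the fatty acid synthase, had signals of 737, 1421 and 2858 against 1229, 610 and 552, and Scd1, a desaturase, of 3646, 7917 and 10114 against 6320, 3146 and 3035. Angptl4, an inhibitor of Lpl, had signals of 80.9, 198 and 224 against 177, 71.0 and 107. Without AICAR replicate 3, the adipocyte median was 0.32, that of lipid uptake and storage 0.20, and the differences of Fasn and Angptl4 were 0.46 and 0.20. The part of fat cells in these values was not tested.

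Lpin1, Foxo1, Pdk4 and Ucp3 did not follow that order. Foxo1, Plin4 and Lpin1 stood above every vehicle array on AICAR replicate 1, where the adipocyte list stood at 0.02, and Pdk4 and Ucp3 were highest on replicate 2. Plin4 did follow the order over the AICAR arrays, with 3828, 4447 and 4503 on replicates 1 to 3. Lpin1, the phosphatidate phosphatase of triglyceride synthesis, had signals of 6013, 5886 and 5409 against 4195, 4498 and 4616, a difference of 0.38 ± 0.084 with an adjusted p of 0.248. Among the AICAR arrays Lpin1 was highest on replicate 1, and it was called without GW1516 replicate 2 (adjusted p = 0.0387). The part of fat cells in the values of these genes was not tested.

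**Figure D4:**
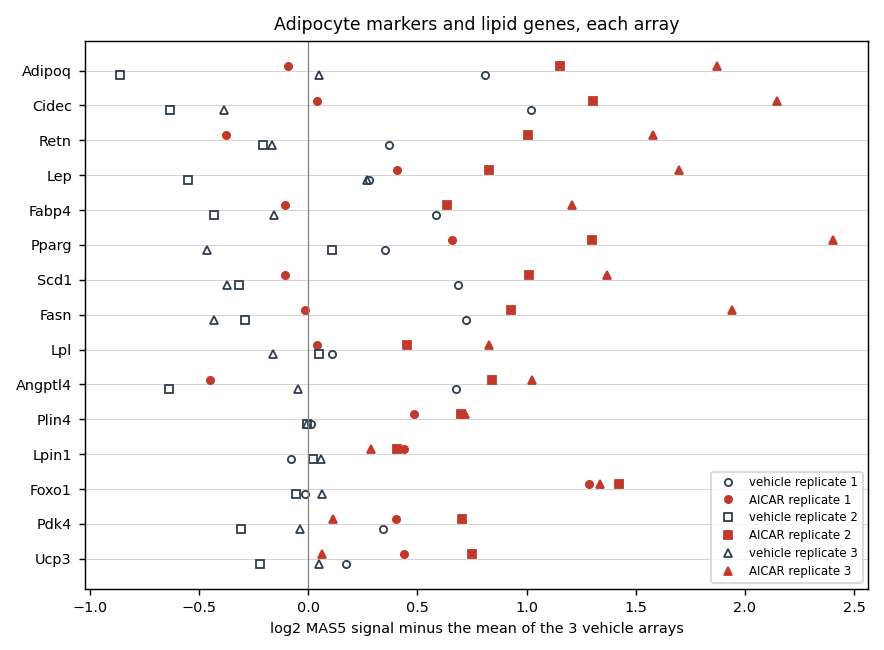
Each point is 1 array, as log2 signal minus the mean of the 3 vehicle arrays, for adipocyte markers (top), lipid genes and 5 other metabolic genes. Adipoq to Angptl4 have their lowest AICAR value on replicate 1 and their highest on replicate 3, and so does Plin4. The AICAR arrays of Plin4, Lpin1 and Foxo1 sit together above the vehicle arrays.

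Vessel genes were measured because Ramp2 and Adgrf5 were among the leading genes. Both are members of the endothelial list and enter its counts, medians and summed signal. The list was not read without them, so its values are not separate from that choice. Of 30 endothelial genes, 20 stood above 0 and 10 below, with a median of 0.13, or 0.01 with arrays centred on their medians. The summed signal of the list was 11785 to 12501 with AICAR and 10230 to 11566 with vehicle, with no overlap, but the array medians of the list overlapped, at 0.08, 0.12 and 0.13 for AICAR and 0.16, 0.04 and -0.17 for vehicle. Of its 7 defining markers 0 were below the filter. At an unadjusted p below 0.05, Ramp2, Adgrf5, Sox18, Plvap, S1pr1 and Ptprb were higher and Cdh5 and Tek lower. Plvap, a protein of fenestrated endothelium, had signals of 345, 294 and 307 against 269, 191 and 256, and S1pr1, the receptor of sphingosine 1-phosphate, of 464, 432 and 444 against 331, 290 and 378. Cdh5, the cadherin of endothelial junctions, had signals of 296, 310 and 305 against 423, 381 and 327. Markers of 1 cell type therefore stood on both sides of vehicle. Vegfa, the main angiogenic signal of muscle, differed by -0.02 ± 0.12.

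Summed signals of the macrophage and fibroblast lists overlapped between the groups, and those of smooth muscle and pericytes and of red blood cells did not. The macrophage list had 13 of 17 genes above 0 and a median of 0.23, with summed signals of 4452 to 5020 for AICAR and of 3726 to 4910 for vehicle. Cd14, a receptor for bacterial lipopolysaccharide, had signals of 83.1, 113 and 89.5 against 43.3, 47.1 and 58.5, a difference of 0.94 ± 0.27 with an adjusted p of 0.474. The fibroblast list had 15 of 20 above 0 and a median of 0.11, and its summed signals, 42220 to 54382 against 40205 to 51667, overlapped. Summed signals of the smooth muscle and pericyte list were 21016 to 21563 with AICAR and 19887 to 20469 with vehicle. Those of the red blood cell list were 273 to 308 against 207 to 256, with Hba-a1, 1 of its 3 defining markers, below the filter. That sum covers 6 dim members, of which only 4 passed the filter. The array medians of the 4 overlapped, at -0.13, 0.36 and 0.32 for AICAR and -0.08, 0.46 and -0.15 for vehicle. The part of these cells in the gene differences was not tested.

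**Figure D5:**
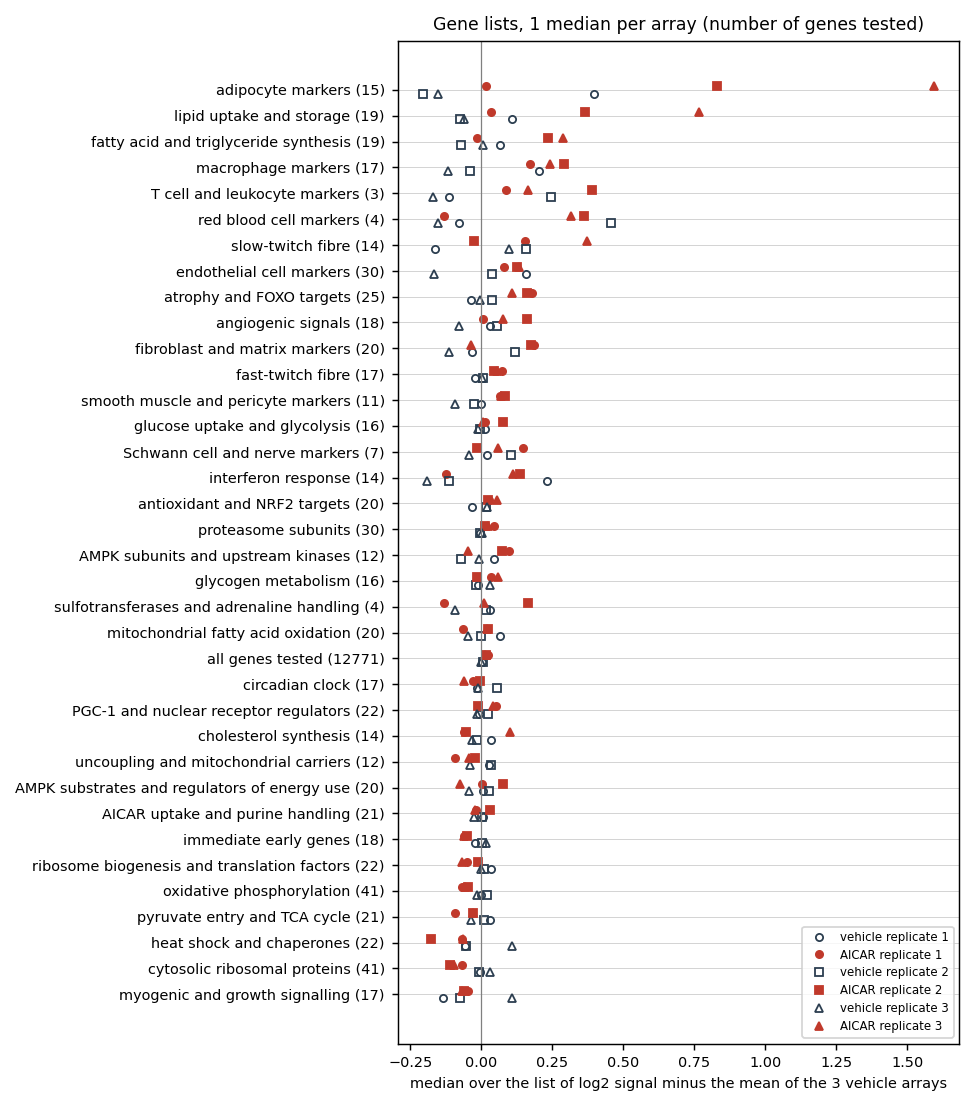
The median of each gene list on each of the 6 arrays, as log2 signal minus the mean of the vehicle arrays, with the number of genes tested in parentheses. Adipocyte and lipid lists spread over the AICAR arrays, from 0.02 to 1.59 for the adipocyte list, whereas oxidative phosphorylation, ribosomal and atrophy lists have AICAR arrays that lie together on 1 side of the vehicle arrays.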

How the data were processed

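Gene expression was measured on 12 Affymetrix mouse arrays, 3 per group, with RNA of 3 mice pooled per array. The deposited values are intensities on a linear scale, MAS5 signals per the submitters' processing notes. The sources used here give neither the MAS5 version nor a genome build. Detection calls did not enter.

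Of 45101 probe sets, 64 controls were left out. In an array annotation of 2016, 34945 carried 1 symbol, 932 several and 9160 none, and 34741 matched a RefSeq gene table by gene ID (0 symbols changed). A floor of 1 was applied before log2, which touched 3531 of 540444 values. The lowest 40% by mean log2 (signal below 28.2) were left out, and the brightest of the remaining 27022 probe sets stood for each gene (5781 of 12771 genes had several).

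limma 3.58.1 (R 4.3.3) fitted 4 group means to all 12 arrays, with a variance trend (8 residual and 5.91 prior degrees of freedom). Tests were two-sided with Benjamini-Hochberg adjustment over all genes, called below 0.05. The contrasts were AICAR minus vehicle, combination minus GW1516, and their difference. Code was tested on simulated data. Figures used matplotlib 3.10.9 in Python 3.11.15.

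Named genes are those called, the 12 of smallest p per direction without overlap, the leading members of each list per direction, defining members, and a fixed set. Of these 157 were tested. Other list members were named after their values were seen. Cpt1b had no probe set with 1 symbol and Myh7 was below the filter. The members and the 35 lists were chosen with earlier results of these data known, and lists are described by counts and medians only. Replicate numbers did not pair AICAR with vehicle arrays: correlations of same-numbered deviations were -0.11, -0.04 and -0.06.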

Additional observations from a re-analysis of the deposited data

Results flagged for a closer look

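Polh and Lpin1 differed in opposite directions in the 2 contrasts, with no overlap of arrays in either. Polh stood at -0.75 for AICAR against vehicle and at 0.33 for the combination against GW1516, and the difference between the contrasts was 1.08 on the log2 scale. Its signals were 143, 150 and 180 with GW1516 and 190, 191 and 211 with the combination. Lpin1 stood at 0.38 and at -0.18, and the difference was -0.56. Its signals were 6155, 7551 and 6301 with GW1516 and 5787, 5802 and 6015 with the combination, and its second contrast was -0.09 without GW1516 replicate 2. The test of this difference gave an adjusted p of 0.703 for both genes in limma.

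A pair of probe sets without a gene name here, outside the 12771 genes, passed an adjusted p below 0.05 when all 27022 probe sets past the filter were tested. Probe set 1453062_at had signals of 104.7, 104.5 and 104.7 with AICAR and of 16.4, 17.8 and 21.0 with vehicle, a fitted difference of 2.51 with an adjusted p of 0.0464. Its vehicle signals all lay below 28.2, the level of the filter, where a signal is not shown to be above background, so the size of this difference is not established. Probe set 1459557_at had signals of 811, 950 and 1062 with AICAR and of 149, 258 and 393 with vehicle, a difference of 1.92 with an adjusted p of 0.0464. In the combination against GW1516 they stood at 0.61 and 0.59. In that test 3 probe sets were called, of which 2 were among the 4308 without 1 symbol. Single outlying values within a group of 3 arrays were not tested for.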

How the results depend on the processing

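The direction of the 24 leading genes was the same in 551 of 551 values over the alternatives run. They were chosen on these arrays for groups that did not overlap, so leaving out 1 array could not turn their sign. Omitting a GW1516 or combination array left their differences unchanged. The number of genes called was not stable. For AICAR against vehicle the count of 1 became 4 (3 higher, 1 lower) at an adjusted p below 0.10, with quantile normalization, with log2(signal + 32), with the lowest 60% left out and with robust variances. It became 15 with array weights, 28 (14 higher, 14 lower) with only the 6 arrays of the comparison, 885 at an unadjusted p below 0.05, and 0 without a variance trend, where Rpl22l1 stood at -0.63 with an adjusted p of 0.312. The cause was not tested. Leaving out 1 array gave 0 to 8 calls, with 0 without AICAR replicate 2, AICAR replicate 3 or vehicle replicate 2, 6 without GW1516 replicate 1 and 8 without GW1516 replicate 2, and -0.67 to -0.59 for Rpl22l1. For the combination against GW1516 the count of 0 became 1326 at an unadjusted p below 0.05, 1 without a variance trend and 0 to 10 with 1 array left out, the 10 being without GW1516 replicate 1 and 2 genes being called without GW1516 replicate 3. For the difference between the contrasts it became 848 at an unadjusted p below 0.05. With the replicate number as a block, 4 genes were called for AICAR against vehicle (2 higher, 2 lower), namely Foxo1, Plin4, Pfkfb3 and Rpl22l1, each at an adjusted p of 0.0379, and 0 for the other tests. Medians of the gene lists kept their sign in 684 of 735 values and named genes in 3515 of 3598. Precision was low for dim genes, with a standard error of 0.50 for Prkaa1 and 0.79 for Tnnt1 against a median of 0.188.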
